A study of Mus musculus with 12 samples.

Results

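Exhausted-sorted (Tex) splenic CD8+ T cells that the authors' clustering placed in cluster 4 were described here, by treatment. They were chosen by their library and cluster number alone and numbered 8840, of 20520 Tex-sorted cells and 100540 cells in the series. Of these, 944 came from the control Tex library (10623 cells) and 7896 from the anti-CD137 Tex library (9897 cells). Nearly all of the other Tex cells, 9229 and 1898 in the same order, were in cluster 3, which served as the comparison within each library.

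Wild-type C57BL/6 mice received either anti-CD137 (clone 3H3, 10 µg, 5 mice), which binds a costimulatory receptor that T cells show once activated, or a control immunoglobulin (clone HRPN, 100 µg, 10 mice), both by repeated dosing for 14 days. Antibody doses thus differed between the arms as well as the antibody itself. From the spleens, CD44-high cells were sorted as Tex (PD1+ Tim3+ Slamf6-), as precursor exhausted cells (Tpex, PD1+ Slamf6+ Tim3-) or as PD1-negative effector cells (Teff). Each treatment and subset gave 1 gene expression library and 1 T cell receptor (TCR) library. The labels name no tumour, infection or age, and cells were not tied to single mice, so differences between treatments lack a replicate check, and no test was run.

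T cells that keep meeting their antigen can enter exhaustion, a state in which they carry inhibitory receptors such as PD1 and Tim3 and lose function. Tpex cells still divide and renew themselves, and give rise to Tex cells, which divide less and are short lived. Every T cell carries a receptor of an alpha (TRA) and a beta (TRB) chain, each assembled from V and J gene segments, with a D segment in TRB, and bases added or lost at the joins. The joined stretch, the CDR3, is therefore a nearly unique mark that passes to daughter cells, so that cells with the same pair of CDR3s, a clonotype, are taken to descend from a common ancestor.

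The identity of cluster 4 could not be checked against marker genes, because values per gene were not used here. The sort gate is the only ground for calling its cells exhausted, and the cluster is called by its number. Cells of this cluster were almost all Tex-sorted, 8840 of 8956 in all libraries (98.7%), and 89.3% of the Tex-sorted ones came from the anti-CD137 library. A cluster drawn so largely from 1 library can stand for the library in place of a type, and here each group is 1 library. Some cell barcodes recurred between libraries: 111 control and 975 anti-CD137 cells of cluster 4 had a barcode also present in another library. Of the 10 control and 69 anti-CD137 paired cells that shared a barcode with Tpex of the same treatment, 1 and 0 had the same clonotype there.

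The largest receptors of cluster 4 were different in the treatments, and their cells are followed by cluster and subset in the clone results. Shown are the nucleotide CDR3s of the TRB chain of the 5 clonotypes with most cluster 4 cells in each treatment, 5′ to 3′, from the deposited TCR table. Capitals mark the bases that match neither the named germline V nor the J segment, that is the D segment and added bases. The germline segments were those of the GENCODE M21 transcripts of GRCm38, the assembly also called mm10.
control clonotype 1, TRBV5 and TRBJ2-3: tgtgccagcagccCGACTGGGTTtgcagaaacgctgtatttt
control clonotype 2, TRBV2 and TRBJ2-1: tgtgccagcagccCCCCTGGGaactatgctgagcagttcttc
control clonotype 3, TRBV5 and TRBJ1-3: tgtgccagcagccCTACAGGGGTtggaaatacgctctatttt
control clonotype 4, TRBV5 and TRBJ2-1: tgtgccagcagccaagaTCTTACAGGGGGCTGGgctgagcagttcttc
control clonotype 5, TRBV3 and TRBJ2-4: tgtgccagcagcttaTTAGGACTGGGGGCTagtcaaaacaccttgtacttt
anti-CD137 clonotype 1, TRBV1 and TRBJ1-3: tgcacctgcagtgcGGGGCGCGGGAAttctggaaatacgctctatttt
anti-CD137 clonotype 2, TRBV29 and TRBJ1-1: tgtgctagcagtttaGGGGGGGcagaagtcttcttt
anti-CD137 clonotype 3, TRBV17 and TRBJ2-4: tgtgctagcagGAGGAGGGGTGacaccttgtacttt
anti-CD137 clonotype 4, TRBV31 and TRBJ1-1: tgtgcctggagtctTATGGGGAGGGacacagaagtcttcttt
anti-CD137 clonotype 5, TRBV13-1 and TRBJ2-5: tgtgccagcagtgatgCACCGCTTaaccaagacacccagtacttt

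The TRB chains of control clonotypes 1 and 3 had the same V segment and length but different J segments, and were equal at 35 of 42 positions. In each chain 13 of the 42 bases matched germline V and 19 germline J, which left 10 that matched neither. Anti-CD137 clonotypes 3, 4 and 5 had unlike TRB chains but all used TRAV3N-3, joined to different J segments. Their TRA CDR3s are shown because TRAV3N-3 was among the segments that differed most in use between the treatments.
anti-CD137 clonotype 3, TRAV3N-3 and TRAJ22: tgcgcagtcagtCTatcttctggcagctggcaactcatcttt
anti-CD137 clonotype 4, TRAV3N-3 and TRAJ31: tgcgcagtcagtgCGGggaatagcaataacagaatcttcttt
anti-CD137 clonotype 5, TRAV3N-3 and TRAJ32: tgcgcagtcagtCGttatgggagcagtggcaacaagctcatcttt

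Cluster 4 cells yielded less RNA than cluster 3 cells of the same library. Unique molecular identifiers (UMIs) count the captured RNA molecules of a cell. Control cells of cluster 4 had between 714 and 12296 UMIs with a median of 2612, and anti-CD137 cells between 1840 and 17294 with a median of 3172. In cluster 3 the medians were 6092 and 6001, so that cluster 4 had 0.429 times as many UMIs in the control and 0.528 times with anti-CD137. Genes with at least 1 UMI followed the same order, with medians of 1229 and 1490 in cluster 4 and 2243 and 2212 in cluster 3. The distributions overlapped: the upper quartile of cluster 4, at 3560 and 4224 UMIs, lay below the lower quartile of cluster 3 in the control (4457) and just above it with anti-CD137 (4170).

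The lower ends of the Tex libraries differed, with 31.1% of control (28.2 to 34.2%) and 7.90% of anti-CD137 cluster 4 cells (7.32 to 8.52%) under 2000 UMIs. Intervals given for shares are exact Clopper-Pearson 95% intervals, except where cells were thinned. They cover counting error only, not the spread between mice or libraries, and cells of a clonotype are not independent. Less RNA per cell and less capture per cell cannot be told apart. The clusters themselves were made from the gene expression of these cells, so differences between clusters in UMIs, genes, ribosomal and mitochondrial percent and cell cycle are descriptions.

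The difference in cluster use between the libraries was there at matched depth, in each bin of UMIs per cell. From 3000 to 4000 UMIs, 88.5% of 2343 anti-CD137 and 14.6% of 1297 control Tex cells lay in cluster 4. From 5000 to 7000 UMIs it was 64.0% of 1285 against 2.05% of 2586.

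The share of UMIs from mitochondrial genes, which is high in damaged cells, was low in cluster 4. Its median was 1.15% in control cells (quartiles 0.705 and 1.69%) and 1.03% in anti-CD137 cells (0.735 and 1.48%), against 1.28% and 1.05% in cluster 3. The medians differed by far less than the spread over cells. The upper tail was heavier in control cluster 4, where 10.7% of cells (8.80 to 12.8%) had over 3% mitochondrial UMIs, against 4.52% with anti-CD137 (4.07 to 5.003%). Cluster 3 had 3.00% and 1.32% of such cells.

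Ribosomal protein genes gave a median of 18.4% of UMIs in control cluster 4 (quartiles 15.9 and 21.1%) and 17.8% with anti-CD137 (14.6 and 20.3%). In cluster 3 the order of the treatments was the other way, with 18.1% and 19.2%. Cluster 4 was thus 0.364 points above cluster 3 in the control and differed by -1.41 points with anti-CD137.

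The ribosomal percent of anti-CD137 cluster 4 had a second, smaller peak between 5 and 10%. A limit of 10%, set after the distribution was seen, put 1010 of 7896 cells (12.8%, 12.1 to 13.5%) below it, with 163 cells in the point below the limit and 137 in the point above. In control cluster 4 it was 61 of 944 cells (6.46%, 4.98 to 8.22%). In cluster 3 such cells were rare (0.954% of control and 0.738% of anti-CD137 cells). These cells are a range of a measure and not a type.

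**Figure D1:**
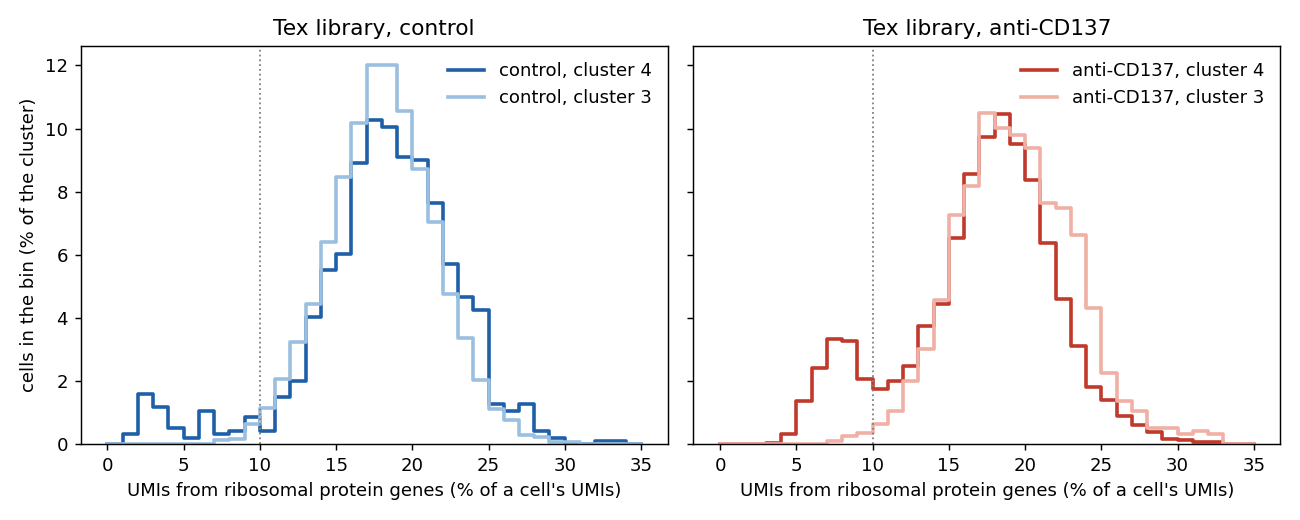
Percent of a cell's UMIs from ribosomal protein genes (x axis, bins of 1 point) against the percent of the cluster's cells in each bin (y axis), for clusters 4 (dark) and 3 (pale) of the control (left) and anti-CD137 (right) Tex libraries, with a dotted line at 10%. Below the line lie 12.8% of anti-CD137 cluster 4 cells, 6.46% of control cluster 4 cells and under 1% of cluster 3 cells.

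The low-ribosomal anti-CD137 cells had other unusual values. Their median was 2467 UMIs but 1562 genes, against 3301 UMIs and 1480 genes in the other cluster 4 cells, so that genes per UMI had medians of 0.623 and 0.444. The median mitochondrial percent was 1.67% against 0.989%. Phase S or G2M, the stages of DNA copying and of preparing for division, was called in 60.7% of them (57.6 to 63.7%) and in 13.9% of the others (13.1 to 14.7%). Within bins of UMIs it was 39.2% against 17.2% under 2000 UMIs, 49.7% against 13.9% from 2000 to 2500 and 82.3% against 10.0% from 3000 to 4000. Low-ribosomal cells had more genes within a bin too, with medians of 1989 and 1525 in the last one. A paired TCR was found in 27.2% (24.5 to 30.1%) of low-ribosomal cells and 48.4% (47.2 to 49.6%) of the others. Of their 275 paired cells, 72.0% (66.3 to 77.2%) carried a clonotype found in further Tex cells of the library. The 61 control cells had a higher median mitochondrial percent, 4.12%, and 40 of them had over 3%. S or G2M was called in 59.02% of these control cells and 8.61% of the other control cluster 4 cells. In the same order, genes per UMI had medians of 0.618 and 0.463, and 34.4% and 66.7% had a paired TCR. In control cluster 3, S or G2M was called in 88.6% of low-ribosomal cells and 40.4% of the others. Anti-CD137 cluster 3 went the other way, with 7 of 14 low-ribosomal cells against 67.6% of the others.

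The cell cycle columns placed most cluster 4 cells in G1, the phase before DNA copying. In control cells these were 88.1% (85.9 to 90.1%), with 6.78% in S and 5.08% in G2M. In anti-CD137 cells G1 took 80.1% (79.2 to 81.0%), S 12.2% and G2M 7.69%. In cluster 3 the values were 59.2% G1, 23.3% S and 17.5% G2M in the control, and 32.5%, 36.5% and 31.0% with anti-CD137. Phase calls depend on the number of UMIs, and cells could not be thinned to an equal depth without values per gene, so no order is read between the treatments.

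Phases were also set side by side within UMI bins. From 4000 to 5000 UMIs, 15.2% (13.2 to 17.5%) of anti-CD137 cluster 4 cells and 52.1% (46.1 to 58.1%) of cluster 3 cells were called S or G2M. In control cells of that bin it was 11.9% (6.29 to 19.8%) and 15.4% (13.6 to 17.3%), with intervals that overlap. In anti-CD137 cells with 7000 to 10000 UMIs, the S or G2M share reached 43.0% in cluster 4 (37.1 to 49.1%) and 79.2% in cluster 3 (74.97 to 83.0%). Medians of the S score were -0.158 in control and -0.112 in anti-CD137 cluster 4, and those of the G2M score -0.216 and -0.149. Free RNA enters such scores too, and its part was not tested.

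**Figure D2:**
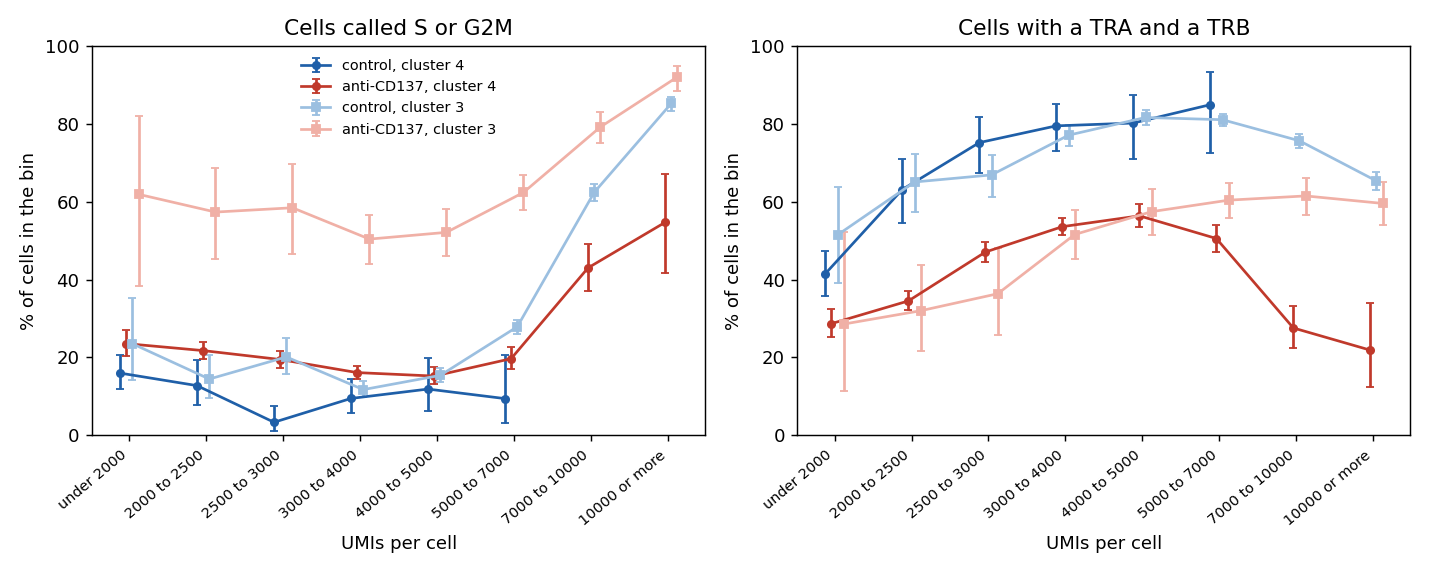
Share of cells called S or G2M (left) and share with both a TRA and a TRB chain (right), in percent, against bins of UMIs per cell, for clusters 4 (circles) and 3 (squares) of both Tex libraries. Bars are exact 95% intervals, and bins with fewer than 20 cells are left out. Anti-CD137 cluster 3 lies above anti-CD137 cluster 4 on the left, and both anti-CD137 sets lie below the control sets from 3000 to 7000 UMIs on the right.

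How often the receptor was recovered limits all clone values. A chain was found in 81.9% (79.3 to 84.3%) of control and 58.1% (57.0 to 59.1%) of anti-CD137 cluster 4 cells. Both chains were found in 610 control cells (64.6%, 61.5 to 67.7%) and 3608 anti-CD137 cells (45.7%, 44.6 to 46.8%), which differ by -18.9 percentage points (-22.2 to -15.6). In cluster 3 the shares were 75.8% and 56.4%. Differences carry intervals by Newcombe's method, formed from the exact limits of the shares. Averaged over UMI bins, the cluster 4 difference was -26.0 points. Barcodes with a chain but no entry in the cell table made up 35.2% of TCR barcodes in the anti-CD137 Tex library and 3.16% in the control one.

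Where found, the chains of cluster 4 had medians of 10 and 11 TRB UMIs and 4 and 4 TRA UMIs per paired cell, the control first. Cluster 3, which is deeper, had 19 and 15 TRB UMIs. Cells with a TRB but no TRA made up 14.7% of control and 11.5% of anti-CD137 cluster 4 cells, and cells with a TRA but no TRB 2.54% and 0.823%. A second TRB was seen in 2.29% (1.26 to 3.82%) of paired control cells and 4.57% (3.91 to 5.31%) of paired anti-CD137 cells. Chain pairs were steady within cluster 4. Among paired cells whose TRB recurred there, another cell with that TRB had the same TRA in 97.0% of cases in the control and in 90.2% with anti-CD137.

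The anti-CD137 cells of cluster 4 with most UMIs stood apart, as seen after their values were known. Among the 336 with at least 7000 UMIs, a chain was found in 28.6% (23.8 to 33.7%), against 64.9% (61.3 to 68.4%) of the 732 cluster 3 cells of that library at this depth. Of the 96 with a TRB, 12 had 2 of them (12.5%). Control cluster 4 had 16 cells of this depth, 11 of them with a chain. The sources used here do not say what was done about doublets, and their part in these cells was not tested.

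Cluster 4 was less dominated by a few clonotypes with anti-CD137 than in the control, and so was cluster 3. Its paired control cells fell into 197 clonotypes, and the anti-CD137 ones into 1030. Intervals of thinned shares treat the rounded expected count as observed in 610 cells, so they are approximate. Thinned to 610 cells, the number in the control, each 100 cells held 32.3 and 51.5 clonotypes. Clonotypes of at least 2 cells then took 77.0% (73.5 to 80.3%) in the control and 62.6% (58.6 to 66.5%) with the antibody, differing by -14.4 points (-19.6 to -9.19). For at least 5 cells the shares were 61.5% and 36.5%. Over all 610 and 3608 paired cells, unequal numbers on which such a share depends, the 10 largest clonotypes held 51.0% (46.9 to 55.0%) of control and 23.9% (22.5 to 25.3%) of anti-CD137 cells. In cluster 3, also thinned to 610 cells, the treatments differed by -15.6 points (-20.9 to -10.2) for at least 2 cells. For at least 5 cells it was -20.5 points, and for the 10 largest clonotypes, not thinned, -24.2.

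Within a library, the expanded share of cluster 4 was set against that of cluster 3 by several measures. For at least 2 cells at 610 cells it was 3.14 points for control cells (-1.82 to 8.05) and 4.29 for anti-CD137 cells (-1.33 to 9.84), and both intervals include 0. For at least 5 cells, control cluster 4 was 9.46 points higher (3.82 to 15.1), while anti-CD137 cells gave 5.07 (-0.354 to 10.5). Counted in the whole Tex library without thinning, for at least 2 cells, it was 1.73 (-0.579 to 3.63) and 7.34 (4.55 to 10.2). By the 10 largest clonotypes, over all paired cells of each cluster and so over unequal numbers, cluster 4 was 8.88 points above cluster 3 in the control (4.67 to 13.1) and 5.94 above it with anti-CD137 (3.14 to 8.60).

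The size of a cell's clonotype in its whole Tex library ran in the same direction between treatments. Counted so, control cluster 4 had 43.9% of its paired cells in clonotypes of at least 100 cells, and 6.23% in clonotypes of 1 cell. With anti-CD137 these were 13.2% and 15.9%. The median cell belonged to a clonotype of 58 cells in the control and of 12 with anti-CD137.

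The largest clonotypes were spread over both clusters. As a base, cluster 4 held 8.02% of the paired control cells and 77.1% of the paired anti-CD137 cells of clusters 3 and 4. Control clonotype 1 (TRBV5 with TRAV12-3) had 101 cells in cluster 4, 16.6% of the paired cells there, and 585 in cluster 3. Control clonotype 2 (TRBV2 with TRAV6-7-DV9) had 73 and 673 cells, clonotype 3 (TRBV5 with TRAV12D-3) 49 and 325, and clonotype 4 (TRBV5 with TRAV16N) 22 and 564. Of their cells in these clusters, clonotypes 1 to 4 had 14.7% (12.2 to 17.6%), 9.79% (7.75 to 12.1%), 13.1% (9.85 to 16.9%) and 3.75% (2.37 to 5.63%) in cluster 4. They were chosen for their number of cluster 4 cells, which bears on these shares. Control clonotype 5 (TRBV3 with TRAV8N-2) had 16 and 14 cells, or 53.3% in cluster 4 (34.3 to 71.7%).

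In the anti-CD137 library the large clonotypes lay mostly in cluster 4. Clonotype 1 (TRBV1 with TRAV13-2) had 193 cells in cluster 4, 5.35% of the paired cells there, and 20 in cluster 3. Clonotype 2 (TRBV29 with TRAV6N-7) had 111 and 17 cells, clonotype 3 (TRBV17 with TRAV3N-3) 95 and 16, clonotype 4 (TRBV31 with TRAV3N-3) 87 and 12, and clonotype 5 (TRBV13-1 with TRAV3N-3) 80 and 10. All 5, chosen in the same way, had between 85.6 and 90.6% of their cells in cluster 4. In each of these 10 clonotypes the cluster 4 cells had a lower median of UMIs than the cluster 3 cells, as 2704 against 6179 in control clonotype 1 and 3746 against 7568 in anti-CD137 clonotype 1.

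Among clonotypes with at least 10 cells in clusters 3 and 4 together, the share of cells in cluster 4 overlapped little between the treatments. The 113 control clonotypes ranged from 0 to 72.7% with a median of 3.75%, and 40 of them had no cell in cluster 4. The 80 anti-CD137 clonotypes ranged from 38.5 to 100% with a median of 78.8%, and 73 had over 50%. Of the control clonotypes 2 lay above the lowest anti-CD137 value, and 28 anti-CD137 clonotypes lay below the highest control value. Pooled over these clonotypes, 8.19% of control and 79.7% of anti-CD137 cells were in cluster 4.

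**Figure D3:**
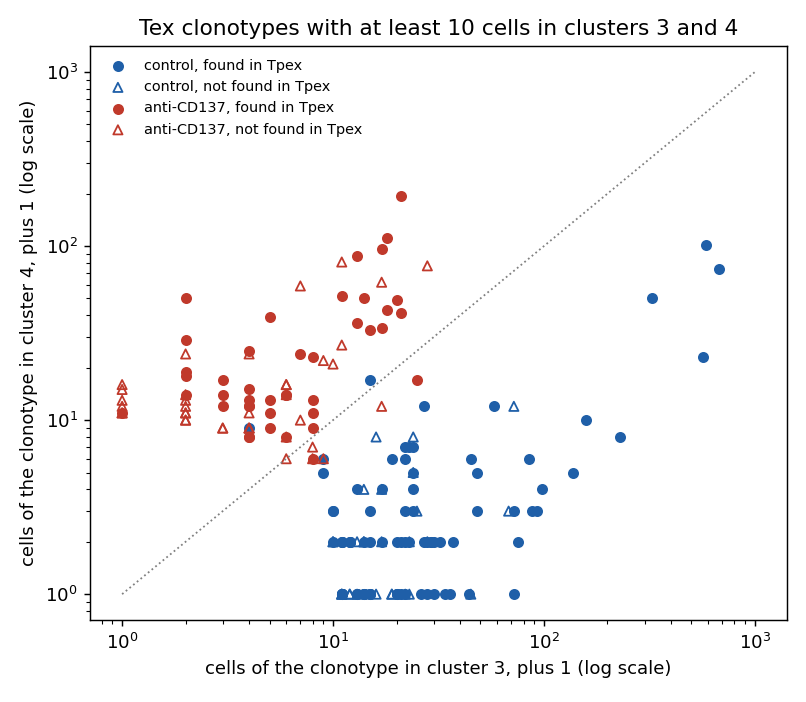
Each point is a clonotype with at least 10 cells in clusters 3 and 4 of its Tex library, with its cluster 3 cells (x axis) and cluster 4 cells (y axis), each plus 1, on log scales. Filled circles were found in Tpex of the same treatment and open triangles were not, and the dotted line marks equal numbers. The control clonotypes (blue, 113) lie below the line except for 2, and the anti-CD137 clonotypes (red, 80) mostly above it.

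By the rule for the extremes among clonotypes of at least 20 cells, the highest anti-CD137 shares were those of a TRBV16 with TRAV7D-2 receptor (49 cells in cluster 4 and 1 in cluster 3) and of a TRBV13-1 with TRAV8N-2 receptor (28 and 1). The lowest were a TRBV12-1 with TRAV12-1 receptor (16 and 24) and a TRBV26 with TRAV3N-3 receptor (11 and 16). In the control, the highest after clonotype 5 was a TRBV13-1 with TRAV4-4-DV10 receptor (7 and 15 cells), and the lowest were a TRBV13-3 with TRAV6-3 receptor (0 and 71 cells) and a TRBV12-2 with TRAV8D-2 receptor (0 and 44). A share of 0 of 71 cells allows up to 5.06% by the exact interval.

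Clonotypes of cluster 4 were looked for among the Tpex cells of the same treatment. In the control, 500 of 610 paired cluster 4 cells (82.0%, 78.7 to 84.9%) had a clonotype that was also in Tpex. With anti-CD137 it was 1625 of 3608 (45.04%, 43.4 to 46.7%), a difference of -36.9 points (-40.3 to -33.3). Cluster 3 had 78.7% and 41.4%. As a share of clonotypes, 61.9% in control cluster 4 and 19.3% in anti-CD137 cluster 4 were found in Tpex. Shares of clonotypes depend on the number of paired cells, here 610 against 3608, and were not thinned. Across treatments, between different mice, 0 of 610 and 0 of 3608 cluster 4 cells had a clonotype in Tpex, which allows up to 0.603% and 0.102% by the exact interval. Some matches between the mice did occur in Tex. The other treatment's Tex library held the clonotype for 7 of the 610 (1.15%) and 5 of the 3608 (0.139%). For cluster 3 this was so in 230 of 7000 (3.29%) and 6 of 1071 (0.56%). In Tpex of the other treatment, 1 of these 1071 was matched. The source of these matches was not tested.

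The size of the treatment difference in sharing depended on how chains were matched. Fewer paired Tpex cells could be searched with anti-CD137, 4471 against 10041, and their pairs were less steady. Among paired Tpex cells with a recurring TRB, another cell with that TRB had the same TRA in 41.6% of cases, against 91.9% in the control. By TRB alone, 83.3% of control and 66.3% of anti-CD137 cluster 4 cells with a TRB had it in Tpex, a difference of -17.0 points (-20.0 to -13.8). With all Tpex TCR barcodes searched, also those outside the cell table, the shares were 86.8% and 78.0% and the difference -8.76 (-11.4 to -5.86). The direction was the same in each of these counts, while the size ran from -36.9 to -8.76 points.

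Larger clonotypes were found in Tpex more often in both treatments, and the part of sampling in this was not tested. Of control cluster 4 cells, 31.6% (17.5 to 48.7%) were found in Tpex where the clonotype had 1 Tex cell, 56.1% for 2 to 4 cells, 78.6% for 5 to 19 cells and 90.9% (87.7 to 93.5%) for at least 20 cells. With anti-CD137 these were 10.8% (8.38 to 13.6%), 24.6%, 40.1% and 70.3% (67.9 to 72.7%). The treatment difference lay between -20.6 and -38.5 points in the 4 classes, and its interval did not include 0 in any of them. These classes rest on matching by both chains to Tpex sets that were not thinned. They were not counted by TRB alone or with Tpex thinned, which made the difference over all classes smaller.

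**Figure D4:**
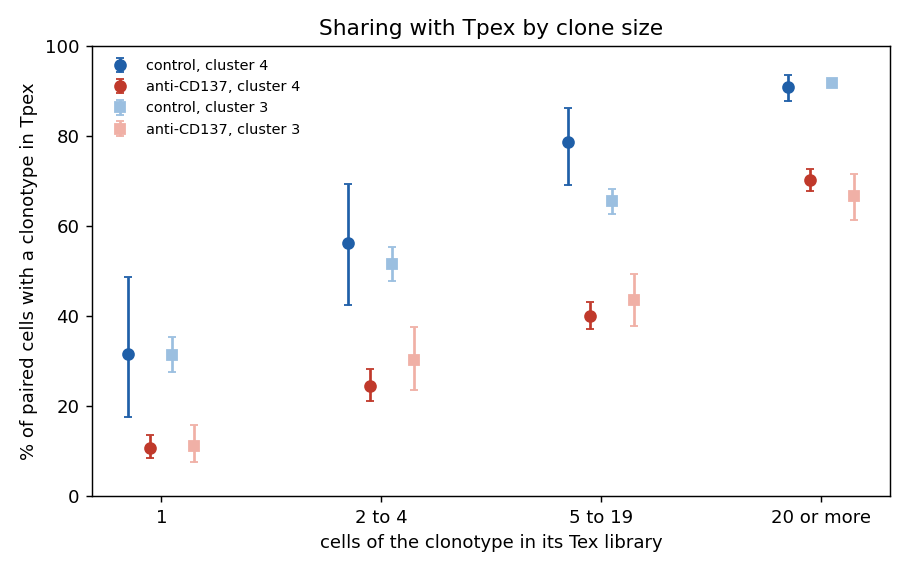
Percent of paired Tex cells whose clonotype was found in Tpex of the same treatment (y axis), by the number of cells of the clonotype in its Tex library (x axis), for clusters 4 (circles) and 3 (squares). Bars are exact 95% intervals. Shares are higher in larger clonotypes, from 10.8 to 70.3% in anti-CD137 cluster 4, and the control lies above anti-CD137 in each class.

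Within a library, the clusters differed less in sharing with Tpex than the treatments did. By cells, cluster 4 was 3.28 points above cluster 3 in the control (-0.140 to 6.41) and 3.68 above it with anti-CD137 (0.246 to 7.07). With only the largest clonotype of cluster 4 left out of both clusters, the anti-CD137 difference was 1.69 (-1.78 to 5.11). Weighted within classes of clone size it was -0.582. By clonotypes, cluster 4 was 17.8 points above cluster 3 in the control (10.0 to 25.3) and differed by -5.24 with anti-CD137 (-9.85 to -0.792). These shares of clonotypes rest on unequal numbers of paired cells, on which they depend. Cluster 4 had 610 against 7000 in cluster 3 in the control, and 3608 against 1071 with anti-CD137. The part of these numbers in the change of sign was not tested.

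The largest clonotypes showed how unequal the Tpex side was. Control clonotypes 1 and 2 had 797 and 869 Tpex cells, and 702 and 762 Tex cells. Such counts come from pools of unequal size, so no order between Tpex and Tex is read from them. In the control, 10041 Tpex cells were paired, against 7610 Tex cells of clusters 3 and 4. With anti-CD137 the numbers were 4471 and 4679. Control clonotype 3 had 183 Tpex and 379 Tex cells, clonotype 4 had 25 and 589, and clonotype 5 had 7 and 30. Anti-CD137 clonotype 1 had 1 Tpex and 213 Tex cells, clonotype 2 had 5 and 128, clonotype 3 had 46 and 116, and clonotype 4 had 2 and 99. Clonotype 5 was not found in Tpex by both chains and had 90 Tex cells. By TRB alone it was there in 4 cells, 3 of which had a TRA, each a different one and none that of the clonotype. The TRB of clonotype 1 was in 3 Tpex cells and that of clonotype 3 in 91.

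Some large cluster 4 clonotypes had no Tpex cell by both chains. In the control they were a TRBV10 with TRAV5-1 receptor of 11 cluster 4 cells (1.80%, 0.904 to 3.20%), a TRBV13-3 with TRAV9-1 receptor of 7 and a TRBV13-1 with TRAV4-4-DV10 receptor of 7. With anti-CD137, next to clonotype 5 (2.22%, 1.76 to 2.75%), they were a TRBV31 with TRAV3-3 receptor of 76 cells and a TRBV14 with TRAV12N-2 receptor of 61.

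Seen from Tpex, a clonotype of cluster 4 was carried by 2681 of 10041 paired cells in the control (26.7%, 25.8 to 27.6%). It was carried by 473 of 4471 with anti-CD137 (10.6%, 9.69 to 11.5%). Most of them were in cluster 1, which holds most Tpex cells, at 90.9% and 90.3%. In the control, 5.74% (4.89 to 6.69%) of these Tpex cells were in cluster 3, against 2.47% (2.10 to 2.88%) of Tpex cells that shared no clonotype with either Tex cluster. With anti-CD137, 7.19% (5.03 to 9.90%) were in cluster 5, against 14.7% (13.6 to 15.9%) of Tpex cells that shared none. Tpex cells that shared a clonotype with Tex cluster 3 and not with Tex cluster 4 numbered 1077 and 57. Of the 1077 control ones, 3.16% (2.20 to 4.38%) were in cluster 3. Of the 57 anti-CD137 ones, 7.02% (1.95 to 17.0%) were in cluster 5. Only 21 and 4 of the Tpex cells with a clonotype of Tex cluster 4 were themselves in cluster 4.

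Sharing of cluster 4 with Teff was lower than with Tpex. It held for 97 of 610 cells in the control (15.9%, 13.1 to 19.05%). With anti-CD137 it held for 407 of 3608 (11.3%, 10.3 to 12.4%). Of the 97 control cells, 73 belonged to control clonotype 2, which had 2 Teff cells. By clonotypes the shares were 4.57% and 5.92%, with intervals that overlap.

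V and J segments are joined when a receptor forms, and their use is known to shift as clonotypes grow. Those at or above 1% of paired cells in either set entered each comparison. In cluster 4, 53 of 103 segments (51.5%) had intervals that did not overlap between the treatments. Of the 103, 35 (34%) were higher and 18 (17.5%) lower with anti-CD137. When each clonotype was counted once, 1 of 124 segments (0.806%) lay apart. That was TRBV2. Clonotypes are fewer than cells, which widens the intervals, and the part of clone size in the differences was not tested. Between treatments, up to 4 segments per direction and kind were picked by ratio of the larger share to the smaller, so further ones lay apart. Positions are on mm10 from the GENCODE M21 annotation, and the segments given with a position lie on the plus strand.

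TRB variable segments lower with anti-CD137 were those of the large control clonotypes. TRBV5 (chr6:41062332-41062803) was in 32.6% of control (28.9 to 36.5%) and 7.48% of anti-CD137 cluster 4 cells (6.65 to 8.39%). Among clonotypes it was in 10.2% and 7.38%. TRBV2 (chr6:41047340-41047995) was used by 14.4% (11.7 to 17.5%) and 0.665% (0.427 to 0.988%) of cells, with 73 of the 88 control cells in 1 clonotype. By clonotypes it was used by 6.09% and 1.94%.

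TRB variable segments higher with anti-CD137 and picked by ratio were TRBV23, TRBV12-1, TRBV29 and TRBV14. Also higher by cells were TRBV1, TRBV16, TRBV17, TRBV19, TRBV31 and the combined TRBV12-2+TRBV13-2 name. By clonotypes, TRBV1 was lower with anti-CD137, by a difference of -4.57 points (-9.64 to -0.66), though the intervals of its shares overlapped. TRBV16, TRBV17 and TRBV31 also had lower shares of clonotypes with anti-CD137, and TRBV19 and the combined name higher ones. For each of these other segments the interval of the difference by clonotypes included 0, so no direction is read. TRBV12-1 (chr6:41113550-41114067) was used by 7.90% of anti-CD137 (7.04 to 8.83%) and 1.48% of control cells (0.677 to 2.78%), and by 7.96% and 4.57% of clonotypes. TRBV29 (chr6:41271394-41271881) had 8.37% and 2.13% of cells, and 111 of its 302 anti-CD137 cells were clonotype 2. TRBV14 (chr6:41135145-41135616) had 5.74% and 1.80% of cells. TRBV23 (chr6:41216073-41216526) had 53 anti-CD137 cells (1.47%), 42 of them in 1 clonotype, and 0 of 610 control cells, which allows up to 0.603% by the exact interval.

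**Figure D5:**
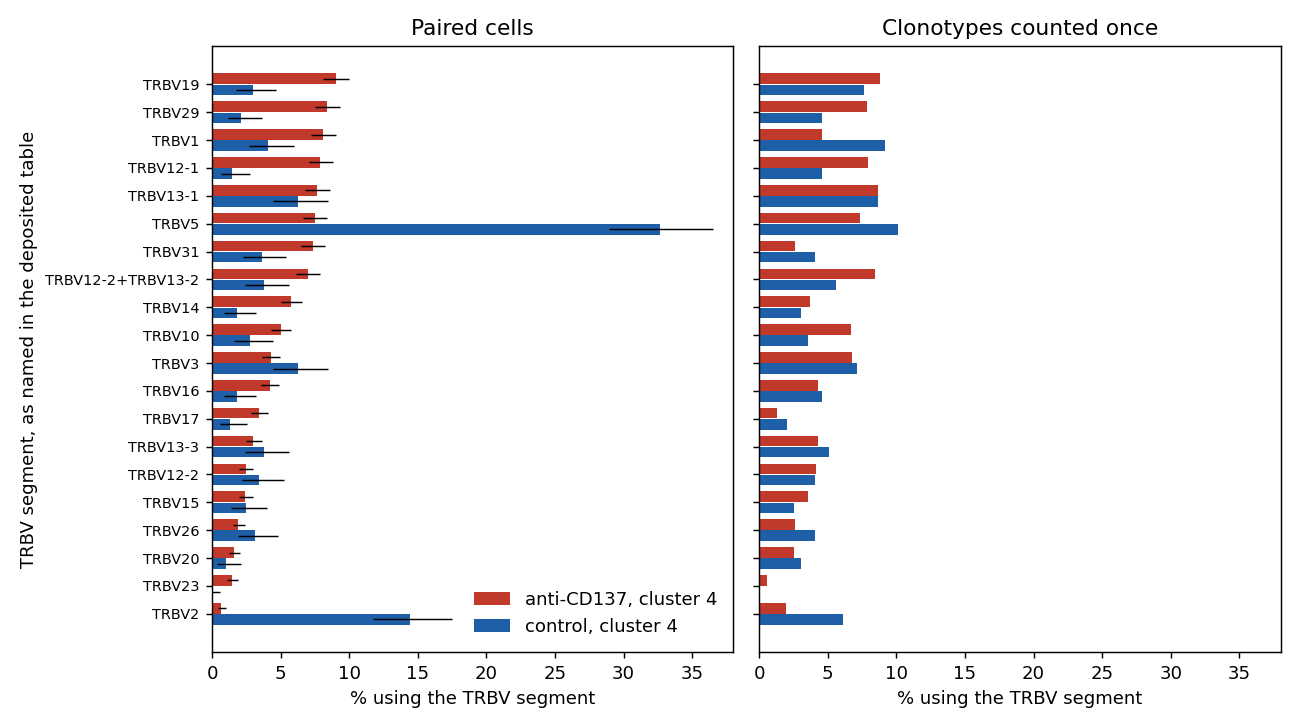
Share of cluster 4 cells (left, with exact 95% intervals) and of cluster 4 clonotypes (right) that use each TRBV segment, in percent, for anti-CD137 (red) and the control (blue). TRBV5 and TRBV2 take 32.6% and 14.4% of control cells, against 10.2% and 6.09% of control clonotypes.

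Among TRA variable segments, TRAV3N-3 (chr14:53283585-53284175) was used by 10.4% of anti-CD137 (9.42 to 11.4%) and 0.492% of control cells (0.102 to 1.43%). Its 375 anti-CD137 cells came from 40 clonotypes, 3 of which are among the 5 largest shown above. By clonotypes its use was 3.88% and 1.52%. TRAV6N-7 (chr14:53318798-53319284) had 4.35% and 0.164% of cells, TRAV13-4-DV7 (chr14:53757356-53757921) 2.49% and 0.164%, and TRAV4-3 (chr14:53598828-53599410) 1.25% and 0. Lower with anti-CD137 were TRAV6-7-DV9 (chr14:53709902-53710419; 0.721% against 12.6%), TRAV12-3 (chr14:53621657-53622245; 1.58% against 17.2%), TRAV2 (0.139% against 1.31%) and TRAV7-6 (0.333% against 2.79%). The TRAV6-7-DV9 and TRAV12-3 cells of the control were mostly clonotypes 2 and 1, with 73 of 77 and 101 of 105 cells. Near copies of TRAV segments exist in the mouse genome, and a segment's name rests on the authors' alignment.

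Among J segments picked by ratio, TRBJ1-1, TRBJ1-2, TRBJ2-2 and TRBJ2-5 were higher and TRBJ1-4, TRBJ2-1 and TRBJ2-3 lower with anti-CD137. TRBJ2-4 and TRBJ2-7 were also higher by cells. TRBJ2-3 (chr6:41543223-41543271) was in 20.3% of control and 4.91% of anti-CD137 cells, with 101 of the 124 control cells in clonotype 1. TRBJ2-5 (chr6:41543453-41543501) was in 12.1% of anti-CD137 and 5.90% of control cells. Among clonotypes it was in 14.0% and 10.2%. TRAJ31 (chr14:54187895-54187951; 9.81% against 0.656%) and TRAJ6 (chr14:54212688-54212749; 8.68% against 0.820%) were higher with anti-CD137, as were TRAJ52 and TRAJ57, used by 0 control cells. TRAJ43, TRAJ11, TRAJ4 and TRAJ47 were lower, as TRAJ43 (chr14:54174742-54174798) with 0.665% against 12.8%. Of the 313 anti-CD137 cells with TRAJ6, 193 were clonotype 1.

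Between cluster 4 and cluster 3 of the same library, fewer segments lay apart. It was 22 of 90 (24.4%) in the control and 15 of 101 (14.9%) with anti-CD137. When each clonotype was counted once it was 0 of 122 and 0 of 109 (0% in both), while by the interval of the difference some did, as TRAJ47 in the control (4.57% against 1.72% of clonotypes, difference 0.201 to 6.84 points). Control segments higher in cluster 4 included TRAV12-3 (17.2% against 9.37%), TRBJ2-3 (20.3% against 11.6%) and TRAJ26 (20.8% against 13.6%), all 3 of control clonotype 1. Lower were TRAV16N (4.75% against 10.2%) and TRAJ37 (4.59% against 9.66%), both of control clonotype 4. With anti-CD137, TRAV13-2 (5.65% against 2.15%), TRAJ6 (8.68% against 3.36%) and TRBJ1-3 (7.68% against 3.92%) were higher in cluster 4, all 3 of anti-CD137 clonotype 1.

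Only TRBV19 and TRAJ23 lay apart between the clusters in both libraries. TRBV19 (chr6:41178375-41179048) was lower in cluster 4 in both, with 2.95% against 6.81% in the control and 9.01% against 12.3% with anti-CD137. By clonotypes the differences in TRBV19 were -4.90 points (-8.83 to 0.127) and -2.19 (-5.64 to 1.005), the same direction with intervals that include 0. TRAJ23 (chr14:54196081-54196140) was lower in cluster 4 in the control, 2.30% against 5.37%, and higher with anti-CD137, 4.10% against 2.33%.

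The joins of cluster 4 receptors were described over clonotypes. The median CDR3 was 42 bases long in both chains and both treatments. The bases of neither germline V nor J had medians of 10 in control and 11 in anti-CD137 TRB chains, and of 3 and 2 in TRA chains. No such base was found in 13.2% (8.81 to 18.7%) of control and 14.0% (11.9 to 16.2%) of anti-CD137 TRA chains. In 2 of 191 control and 6 of 925 anti-CD137 cases, the same TRB protein CDR3 came from at least 2 nucleotide sequences.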

How the data were processed

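Single-cell 5′ gene expression and TCR libraries of sorted splenic CD8+ T cells were used, 1 of each per treatment and subset. Cell Ranger 3.0.2, Seurat 4.0.0 and mm10 are the tools and build in the submitters' processing notes. Filters, doublet handling and whether TCR genes entered the clustering are not given in the sources used here. Per the file headers, the deposited cell table gives counts of UMIs and of genes per cell, the percent of mitochondrial and ribosomal UMIs, cell cycle score columns with a phase, and a cluster number. The deposited TCR table gives counts of UMIs and reads per contig, with V, J and CDR3. No values per gene were used here, and no doublet caller was run.

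Library and barcode joined each contig to its cell. A clonotype was the pair of nucleotide CDR3s of the TRA and TRB with most UMIs, in cells with both. Total UMIs were 66719180 in the control and 41319976 in the anti-CD137 Tex library. Shares carry exact Clopper-Pearson 95% intervals. Differences carry intervals by Newcombe's method, formed from these exact limits. Intervals of thinned shares are those of the rounded expected count, as if it had been observed, and are therefore not exact. Thinning to 610 cells used expected values without replacement. UMI bins had edges at 2000, 2500, 3000, 4000, 5000, 7000 and 10000, with at least 20 cells in both sets, each weighted by its cells in both. Segments lay apart where intervals did not overlap. In each comparison, those picked came from up to 4 per direction and kind by ratio. Further TRBV and TRBJ segments apart between treatments are listed by name only. Clonotypes are named if among the 5 largest of cluster 4, the 3 largest found and not found in Tpex, and the 2 extremes by cluster 4 share, in each treatment. Of 164 segments used, 163 were found in the annotation, all but a combined TRBV12-2+TRBV13-2 name. Germline matches were searched over the last 40 bases of V. The statistics were tested on simulated data. Members, rules and lists were chosen with earlier results of these data known. Python 3.11.15, numpy 2.4.6, pandas 2.3.3, scipy 1.17.1 and matplotlib 3.10.9 were used.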

Additional observations from a re-analysis of the deposited data

Results flagged for a closer look

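Cluster 4 stood on opposite sides of cluster 3 in the libraries in the median of 2 cell columns, and, with both intervals apart from 0 or from each other, in 1 clone measure and 1 segment. None of these differences between treatments was tested. Clonotypes found in Teff, at 2.18 and -1.23 points with intervals that include 0, and further segments whose intervals overlap between clusters in at least 1 library also changed sign. The median ribosomal percent was 0.364 points above cluster 3 in the control and differed by -1.41 points with anti-CD137. The median G2M score was 0.0202 above cluster 3 in the control and differed by -0.131 with anti-CD137. The share of clonotypes found in Tpex was 17.8 points above cluster 3 in the control and differed by -5.24 points with anti-CD137. It was not thinned, and the cluster with fewer paired cells was cluster 4 in the control and cluster 3 with anti-CD137. Use of TRAJ23 differed by -3.08 points in the control and was 1.77 points higher with anti-CD137, while by clonotypes both intervals include 0 (-4.41 to 2.06, and -2.48 to 2.03).

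Some cells of cluster 4 came from the other sorts, outside the comparisons above. Tpex cells of cluster 4 numbered 47 (control) and 35 (anti-CD137), and Teff cells 9 and 25. Of the paired ones in Tpex, 27 of 36 in the control and 4 of 22 with anti-CD137 carried a clonotype of Tex. In Teff it was 2 of 7 and 1 of 17. Their median UMI counts were 4251 and 2037 in Tpex and 5595 and 6404 in Teff.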

How the results depend on the processing

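Of 60 alternatives to 13 results, 36 stayed within the 95% interval of the value first given (counts of segments within 1.5 times), 22 moved further, and 2 reversed a difference whose interval leaves out 0. The cluster 4 share of Tex cells, 70.9 points higher with anti-CD137, was 72.9 from 1840 UMIs, 68.6 in paired cells, 56.7 over UMI bins, 50.7 with each clonotype once per cluster, 77.8 in G1 cells and 69.1 without low-ribosomal cells. The ribosomal difference between treatments, -0.651 points, was -1.48 over UMI bins. The paired share, at -18.9, was -26.0 over UMI bins and -23.8 for any chain. The expanded share, at -14.4, was -24.9 for at least 5 cells. The share found in Tpex, at -36.9, was -17.0 by TRB alone and -8.76 by TRB with all Tpex barcodes. By TRB with Tpex thinned to the smaller library's number of cells with a TRB, it was -12.7. It was -30.6 with paired Tpex thinned to 4471 cells, -49.8 for at least 2 Tpex cells and -42.6 by clonotypes. Cluster 4 minus cluster 3 for this share, 3.28 in the control, was 17.8 by clonotypes and -1.02, with the sign turned, over UMI bins. With anti-CD137 it was 3.68, and reversed to -5.24 by clonotypes and to -0.582 within classes of clone size. With each clonotype once, segments apart between treatments numbered 1 in place of 53, and 5 by the interval of the difference. Between clusters they numbered 0 in place of 22 and 0 in place of 15. The cause was not tested in any of these. Alternatives on G1 cells, low-ribosomal cells, TRB with Tpex thinned or all barcodes, clone-size classes, and the 5 segments by the difference were chosen after seeing the data, as were some settings that changed little. No paired analysis was possible because each group is 1 library, and no replicate could be left out.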

Other observations

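Low ribosomal percent was also the mark of another small group of Tex cells. In the control Tex library, cluster 8 held 196 cells, of which 151 (77.0%, 70.5 to 82.7%) had under 10% ribosomal UMIs. Their median was 1082 UMIs and 6.60% mitochondrial UMIs, and a paired TCR was found in 10.6% of them. The anti-CD137 Tex library had 8 cells in cluster 8, 7 of them low in ribosomal UMIs. It had 14 such cells in cluster 3 and 1010 in cluster 4, the latter with a median mitochondrial percent of 1.67%. Whether the low-ribosomal cells of the libraries are of like kind was not tested.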
